A study of Arabidopsis thaliana with 6 samples.

Results

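The 10 genes described here encode chaperones of the endoplasmic reticulum (ER) of Arabidopsis thaliana and were chosen by gene ID. They are the BiP genes BIP1 (AT5G28540), BIP2 (AT5G42020) and BIP3 (AT1G09080), the calnexin genes CNX1 (AT5G61790) and CNX2 (AT5G07340), and the calreticulin genes CRT1 (AT1G56340), CRT2 (AT1G09210) and CRT3 (AT1G08450). The GRP94 gene SHD (AT4G24190) and the HSP70-type gene HSP70-17 (AT4G16660) complete the set. All 10 were found among the 23022 genes listed in at least 1 library, and all 10 passed the filter on low counts. Polyadenylated RNA was sequenced from whole seedlings grown for 10 days on vertical plates, in 3 libraries of a mutant labelled 17ab and 3 libraries of wild type (WT). Seedlings of like size were frozen at harvest, the labels name no stress agent, and they give neither the alleles of 17ab nor whether libraries came from separate plates, so the spread behind each p-value may be a technical one. The series asks whether vegetative growth needs the unfolded protein response.

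Proteins that enter the ER fold with the help of lumenal chaperones. BiP, the HSP70 of the ER, binds hydrophobic stretches of unfolded chains and releases them under control of its nucleotide. Calnexin, which is anchored in the membrane, and calreticulin, which is soluble, are lectins that hold glycoproteins through a single glucose left on their N-glycans. GRP94 is the HSP90 of the ER and acts late in the folding of a narrower set of clients. When unfolded protein builds up, the sensors IRE1 and the membrane-tethered bZIP factors raise the transcription of such chaperones, and in Arabidopsis BIP3 is widely used as a reporter of that response because its level is low without stress.

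Library totals were 6261789 to 6292461 expected counts in 17ab and 5968854 to 6198230 in WT, and 17854 genes were tested. The biological coefficient of variation was 8.38%, and over all tested genes the log2 fold change had a median of -0.002. The labels do not name the mutated genes, so no targeted gene could be checked, but transcripts of 3 sensors of ER stress fell. Whether these 3 are themselves the mutated genes was not tested. bZIP17 stood at 1.90 to 2.08 FPKM in 17ab and 10.24 to 11.25 FPKM in WT (edgeR adjusted p = 1.221e-06). IRE1A stood at 3.73 to 4.06 FPKM in 17ab and 12.11 to 12.60 FPKM in WT (edgeR adjusted p = 2.982e-06), and IRE1B at 4.52 to 5.27 FPKM in 17ab and 7.81 to 8.24 FPKM in WT (edgeR adjusted p = 0.001345). The sensor bZIP28 and bZIP60, the transcription factor whose mRNA is spliced by IRE1, had log2 fold changes of 0.16 ± 0.10 and 0.23 ± 0.12 (SE), with edgeR adjusted p-values of 0.3476 and 0.2574.

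Of the 10 chaperone genes 4 rose in 17ab (BIP3, CRT2, CRT3 and HSP70-17), none fell and 6 did not pass the test. Over all tested genes 7.57% rose and 6.51% fell, 14.1% in all (edgeR quasi-likelihood test, Benjamini-Hochberg adjusted p under 0.05). CNX2, with a negative log2 fold change, had an unadjusted p of 0.04897 (edgeR) and did not pass after adjustment. The share of all tested genes at an unadjusted p under 0.05 was not counted, so such counts below have no background. Log2 fold changes ran from -0.17 to 2.16 with a median of 0.18, and 7 of the 10 were above 0. Levels of the same 4 genes did not overlap between the genotypes, each being higher in all 3 libraries of 17ab, and 18.2% of all tested genes were separated in that direction. The number of risen members was 2 without 17ab replicate 3 or without WT replicate 1, since CRT2 and HSP70-17 then lost their calls. In those 2 fits 1103 of 18059 and 924 of 18146 tested genes rose, against 1352 of 17854 in the main fit. In RNA of whole seedlings, more or fewer cells of a type cannot be told apart from more or less RNA per cell.

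**Figure D1:**
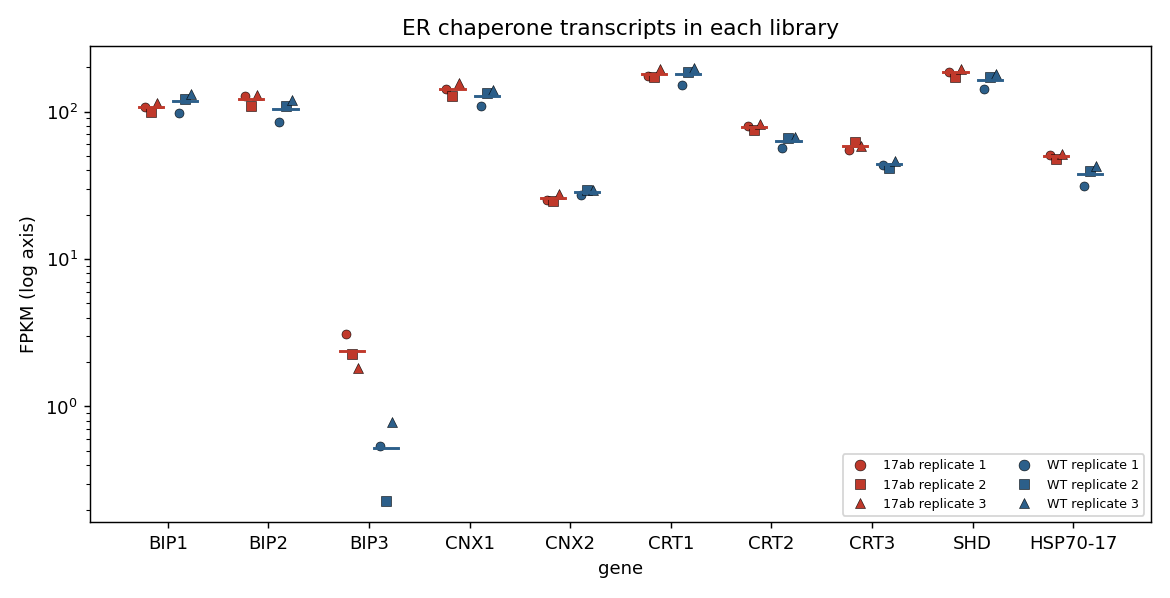
FPKM (log axis) of the 10 ER chaperone genes in each library, with 17ab in red left of WT in blue, 1 point per library (circle, square and triangle for replicates 1, 2 and 3) and a line at the group mean of 3 libraries. BIP3 lies far below the other genes, and the libraries of 17ab and WT are fully apart for BIP3, CRT2, CRT3 and HSP70-17.

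**Figure D2:**
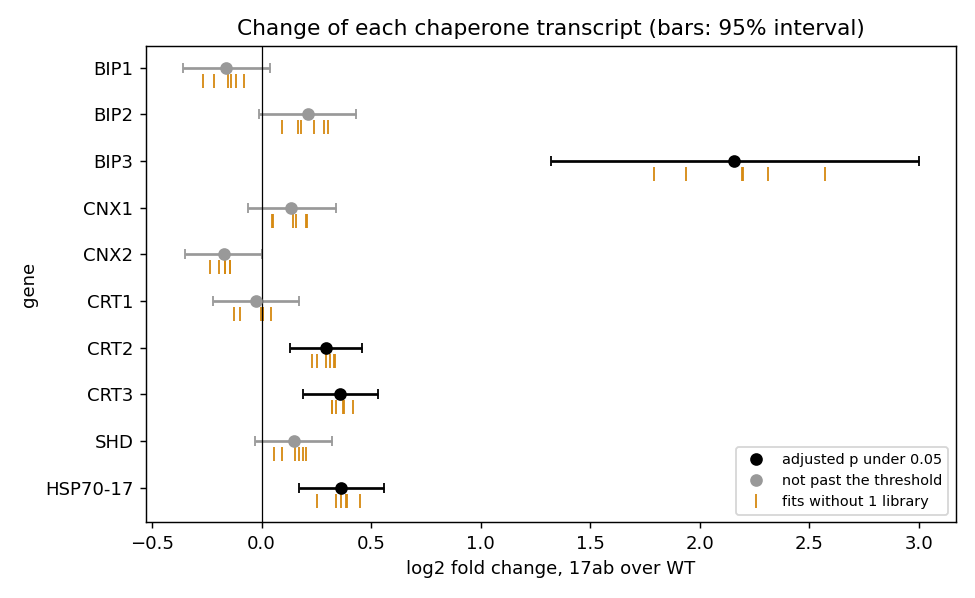
Log2 fold change of 17ab over WT for each gene, with the 95% interval as a bar (black, adjusted p under 0.05; grey, not past the threshold) and, under it, an orange tick for each of the 6 fits without 1 library. BIP3 lies at 2.16 and every other gene between -0.17 and 0.36, and the ticks of CRT1 lie on both sides of 0.

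Expressed per length, the most abundant member was SHD in 17ab, at 184.6 ± 11.9 FPKM, and CRT1 in WT, at 178.6 ± 24.9 FPKM (mean ± SD, n = 3, here and below). In 17ab the means descended from SHD through CRT1, CNX1, BIP2, BIP1, CRT2, CRT3, HSP70-17 and CNX2 to BIP3. In WT the order differed in 2 places, with CRT1 above SHD and BIP1 above BIP2. The neighbours SHD and CRT1 overlapped in their ranges in both groups, CNX1 overlapped the more abundant of the pair BIP1 and BIP2 in both, and BIP1 overlapped BIP2 in both. CNX1 was clear of the next gene above it, CRT1 in 17ab and SHD in WT, in every library. CRT3 and HSP70-17 overlapped in WT (41.51 to 46.44 and 31.11 to 42.84 FPKM) but not in 17ab (54.83 to 61.89 and 47.45 to 51.37 FPKM). Together the 10 genes summed to 947.89, 889.97 and 1012.6 FPKM in 17ab replicates 1 to 3, against 741.94, 898.61 and 954.56 FPKM in WT replicates 1 to 3. These summed levels overlapped between the genotypes, with WT replicate 1 below the other libraries. SHD and CRT1 alone made up 19.4% and 19.0% of the sum of means in 17ab, and 19.0% and 20.7% in WT.

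BIP1 and BIP2 encode the abundant forms of BiP, and their mRNAs are close copies. Their coding sequences (2010 and 2022 bases, RefSeq annotation of TAIR10.1) were identical at 96.8% of 2006 aligned bases, and 22.9% of all 50-base windows of the BIP1 transcript also occurred in a BIP2 transcript. BIP3 was identical to BIP1 at 73.3% of aligned bases, and none of its 50-base windows was shared with either. A stretch of 120 coding bases of BIP1 and the bases aligned to it (916 to 1035 of BIP2 and 943 to 1062 of BIP3, counted from the A of the start codon) is shown because it makes visible how a read could fit BIP1 and BIP2 but hardly BIP3. It is an example, more alike in all 3 genes than their coding sequences as a whole. Capitals mark differences from BIP1, 2 in BIP2 and 24 in BIP3.
BIP1: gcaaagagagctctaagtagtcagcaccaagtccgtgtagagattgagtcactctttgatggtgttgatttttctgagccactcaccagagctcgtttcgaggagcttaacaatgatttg
BIP2: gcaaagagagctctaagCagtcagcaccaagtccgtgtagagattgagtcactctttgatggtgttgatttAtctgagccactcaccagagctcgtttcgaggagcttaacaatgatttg
BIP3: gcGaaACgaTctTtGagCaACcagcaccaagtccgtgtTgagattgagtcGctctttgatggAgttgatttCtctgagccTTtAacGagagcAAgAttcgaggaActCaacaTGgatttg

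Expected counts of BIP1 and BIP2 were fractional in all 6 libraries, while their sum was whole in all 6 (within 0.015), so their reads had been divided between the pair and the values of each copy are uncertain. Summed counts of BIP1 and BIP2 were 3946, 3508 and 4066 in 17ab replicates 1 to 3 and 3029, 3869 and 4005 in WT replicates 1 to 3. The groups overlapped, WT replicate 1 was lowest, and the log2 fold change of the summed pair was 0.01 ± 0.10 (SE, edgeR adjusted p = 0.9529). That value turned negative without 17ab replicate 3 (-0.04) and without WT replicate 1 (-0.10). The sum therefore showed no difference larger than the spread between libraries.

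Taken singly, BIP1 had 106.65, 99.18 and 113.96 FPKM in 17ab replicates 1 to 3, against 98.08, 122.20 and 131.26 FPKM in WT replicates 1 to 3. BIP2 had 127.29, 108.75 and 128.89 FPKM in 17ab and 84.53, 108.14 and 119.57 FPKM in WT. Both genes overlapped between the groups, and neither passed the edgeR test, with log2 fold changes of -0.16 (95% interval -0.36 to 0.04, adjusted p = 0.2849) and 0.21 (-0.01 to 0.43, adjusted p = 0.2016). Within each library, however, BIP2 had the higher FPKM in all 3 libraries of 17ab and BIP1 in all 3 of WT. BIP2 contributed 51.3, 49 and 49.7 of 100 counts of the pair in 17ab replicates 1 to 3, against 42.8, 43.8 and 43.9 in WT replicates 1 to 3. These shares did not overlap (50 ± 1.17 in 17ab and 43.5 ± 0.593 in WT, n = 3), and the exact two-sided permutation test gave p = 0.1, the smallest that 3 against 3 allows. Of 5 such shares tested within the families, 4 reached that p (0.125 adjusted over the 5). In FPKM, 31.1% of all tested genes did not overlap between the groups, and no such background was computed for shares. The shares of BIP2, CRT2 and CNX2 were chosen after their values were seen.

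BIP3, the stress-inducible BiP, had by far the largest change of the 10 and the lowest level. It was counted 41, 30 and 24 times in 17ab replicates 1 to 3, against 7, 3 and 10 times in WT replicates 1 to 3. Every 17ab library was above every WT library, at 1.82 to 3.09 FPKM in 17ab and 0.23 to 0.79 FPKM in WT. The mean was 2.39 ± 0.645 FPKM in 17ab and 0.520 ± 0.281 FPKM in WT, and the log2 fold change was 2.16 ± 0.39 (SE, 95% interval 1.32 to 3, edgeR adjusted p = 0.002788). From the summed counts, 95 in 17ab and 20 in WT, the rate ratio was 4.62 (exact 95% interval 2.83 to 7.90, counting error only, as all such intervals and floors here). WT replicate 2 lay at the floor of 3 counts. The call held in each of the 6 fits without 1 library, where the log2 fold change was 1.79 to 2.57 (adjusted p from 0.004604 to 0.01521). On the log2(FPKM + 1) scale, which compresses low genes, it was 1.16.

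Even in 17ab, BIP3 remained a minor BiP transcript. It made up 1.03, 0.848 and 0.587 of 100 BiP counts in 17ab replicates 1 to 3, against 0.231, 0.0775 and 0.249 in WT replicates 1 to 3. The shares did not overlap (0.821 ± 0.222 in 17ab and 0.186 ± 0.0942 in WT, exact two-sided permutation p = 0.1, n = 3). Within 17ab, replicate 3 had the lowest level of BIP3, while it was the highest of the 3 for 8 of the other members.

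**Figure D3:**
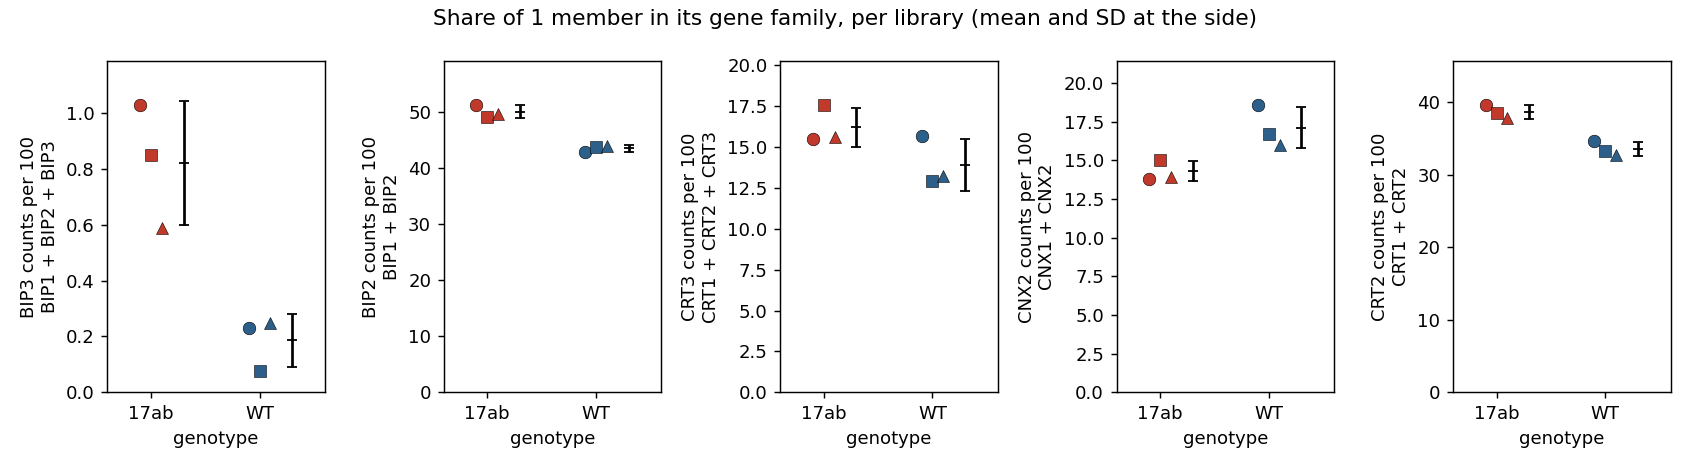
Counts of 1 member per 100 counts of its family in each library (vertical axes start at 0), 17ab in red left of WT in blue, with symbols for replicates 1 to 3 and the mean and SD of 3 libraries beside them. The shares of BIP3, BIP2 and CRT2 are higher in all 17ab libraries, that of CNX2 is lower in all, and that of CRT3 overlaps.

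Of the lectin chaperones the calreticulins CRT2 and CRT3 rose and CRT1 and both calnexins did not pass the test. CRT3 belongs to a plant-specific class of calreticulin and is known for the biogenesis of the bacterial pattern receptor EFR and for retaining defective forms of the brassinosteroid receptor BRI1. CRT3 had 54.83, 61.89 and 58.77 FPKM in 17ab replicates 1 to 3, against 43.42, 41.51 and 46.44 FPKM in WT replicates 1 to 3. The groups were apart by more than their own width, and all its counts were whole numbers. The log2 fold change was 0.36 ± 0.08 (SE, 1.28-fold, 95% interval 0.19 to 0.53, edgeR adjusted p = 0.00818), and the call held without any 1 library (0.32 to 0.42, adjusted p from 0.004344 to 0.0475). Transcripts of its client EFR stood at 2.92 ± 0.716 FPKM in 17ab and 2.47 ± 0.375 FPKM in WT, with a log2 fold change of 0.22 ± 0.19 that did not pass (edgeR adjusted p = 0.5242).

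CRT1 and CRT2 are the general calreticulins and share 84.2% of 1272 aligned coding bases. CRT2 had 79.51, 74.36 and 82.52 FPKM in 17ab replicates 1 to 3, against 56.20, 65.79 and 67.37 FPKM in WT replicates 1 to 3. Its groups did not overlap, and WT replicate 1 was lowest. The log2 fold change was 0.30 ± 0.08 (SE, 1.23-fold, edgeR adjusted p = 0.02105), and the call was lost without 17ab replicate 3 (0.26, adjusted p = 0.07332), WT replicate 1 (0.23, adjusted p = 0.09771) or WT replicate 2 (0.31, adjusted p = 0.05457). CRT1, at 171.94 to 195.55 FPKM in 17ab and 150.70 to 198.52 FPKM in WT, had overlapping groups and a log2 fold change of -0.03 (95% interval -0.22 to 0.17, edgeR adjusted p = 0.8912), whose sign varied with the fit.

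As for the BiP pair, the reads of CRT1 and CRT2 had been divided between them, with fractional counts in all 6 libraries and whole sums in all 6. CRT2 took 39.7, 38.6 and 37.8 of 100 counts of the pair in 17ab replicates 1 to 3 and 34.6, 33.3 and 32.8 in WT replicates 1 to 3. The shares did not overlap (exact two-sided permutation p = 0.1, n = 3). The 2 genes shared 0.166% of the 50-base windows of the CRT1 transcript, far fewer than BIP1 and BIP2. Summed in 1 row, a setting chosen after seeing the data, the pair was at 0.09 ± 0.08 in log2 units and was not called (edgeR, adjusted p = 0.5445). The share of CRT3 among all calreticulin counts was 15.5 to 17.6 per 100 in 17ab and 12.9 to 15.7 per 100 in WT, and these ranges overlapped (exact two-sided permutation p = 0.3, n = 3).

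CNX1, the main calnexin, had 141.83, 127.26 and 156.51 FPKM in 17ab replicates 1 to 3, against 108.85, 132.46 and 139.20 FPKM in WT replicates 1 to 3. CNX2, its less abundant copy, had 25.06, 24.87 and 27.59 FPKM in 17ab and 27.13, 29.38 and 29.46 FPKM in WT. Both overlapped between the genotypes, CNX2 only because 17ab replicate 3 exceeded WT replicate 1. CNX1 had a log2 fold change of 0.14 (95% interval -0.06 to 0.34, edgeR adjusted p = 0.3808) and CNX2 one of -0.17 (-0.35 to 0.00, adjusted p = 0.1798). CNX2 made up 13.8, 15 and 13.9 of 100 calnexin counts in 17ab replicates 1 to 3, against 18.6, 16.7 and 16.0 in WT replicates 1 to 3. That share did not overlap (exact two-sided permutation p = 0.1, n = 3), and each calnexin gene had whole counts in 3 of the 6 libraries. Summed in 1 row, a setting chosen after seeing the data, the pair was at 0.09 ± 0.09 in log2 units (edgeR, adjusted p = 0.569).

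HSP70-17 belongs to the large HSP70 type of the ER, whose yeast and mammalian relatives exchange the nucleotide of BiP. It had 50.63, 47.45 and 51.37 FPKM in 17ab replicates 1 to 3, against 31.11, 39.80 and 42.84 FPKM in WT replicates 1 to 3. The groups did not overlap, the WT libraries were spread more widely than those of 17ab, and WT replicate 1 was lowest. The log2 fold change was 0.36 ± 0.09 (SE, 1.29-fold, 95% interval 0.17 to 0.56, edgeR adjusted p = 0.01771). The call was lost without WT replicate 1 (0.25, adjusted p = 0.06674), without 17ab replicate 3 (0.34, adjusted p = 0.05342) and with limma-trend on log2(FPKM + 0.1) (0.41, adjusted p = 0.05199). SHD, whose loss is known to disturb shoot and root meristems through the CLAVATA pathway, had 186.24, 172.01 and 195.57 FPKM in 17ab and 141.38, 172.40 and 179.11 FPKM in WT. Its groups overlapped, and its log2 fold change of 0.15 (95% interval -0.03 to 0.32) did not pass (edgeR adjusted p = 0.2874).

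The members varied together across libraries in part. In FPKM, WT replicate 1 was the lowest of all 6 libraries for 7 of the 10 genes, and WT replicate 3 was the highest WT library for all 10. Within 17ab replicate 2 was lowest for 8 genes and replicate 3 highest for 8. BIP2, CNX1, SHD, CRT2 and HSP70-17, a group picked after the values were seen, had pairwise Pearson r of log2 CPM from 0.82 to 0.98 over the 6 libraries. BIP1 was closest to CRT1 (r = 0.88), BIP3 was closest to CRT3 (r = 0.87), and BIP3 and CNX2 ran opposite (r = -0.84). The 6 points of each such correlation hold 2 genotypes and share library totals, so these values are descriptions only.

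**Figure D4:**
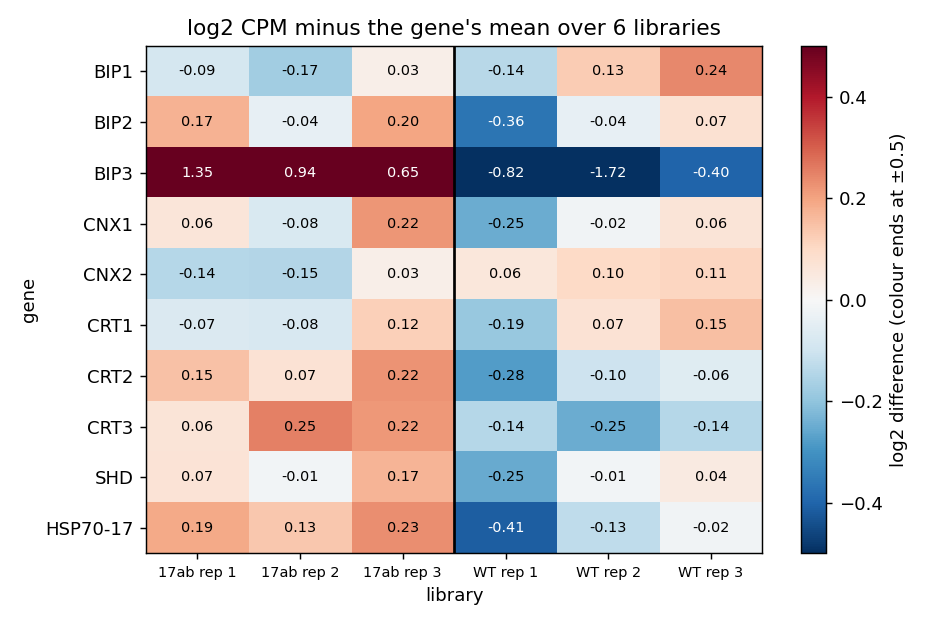
Log2 CPM of each gene minus its mean over 6 libraries (numbers, and colour ending at 0.5 in either direction), with the 3 libraries of 17ab left of the 3 of WT. WT replicate 1 is low for most genes, BIP3 separates the genotypes most widely, and BIP1 and CRT1 show no split by genotype.

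Among all tested genes, the profiles most like BIP3 over the 6 libraries were those of AT5G45500, AOC3 and HIPL2 (Pearson r of log2 CPM from 0.994 to 0.996). For CRT3 they were RPS2, TRFL1 and PPDK (r from 0.996 upward), for CRT2 PLDALPHA1, UMAMIT1 and NHL8 (0.991 to 0.998), and for HSP70-17 HB-7, NHL8 and AT1G23830 (0.989 to 0.992). NHL8 stood in both of the last 2 sets. PLDALPHA1, NHL8 and AT1G23830 did not pass the edgeR test (adjusted p = 0.09102, 0.06204 and 0.08063), and the other neighbours did. Each set holds the 3 highest r among 17854 tested genes over 6 points, so high values follow from the selection and are descriptions only.

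The chaperones were then set beside the other genes of ER folding. For each list below, the shares over all tested genes were 7.57% risen and 6.51% fallen. Of 6 co-chaperones 1 rose and none fell, with a median log2 fold change of 0.02. The riser was ERDJ3A, a J-domain protein that works with BiP, at 4.04, 5.68 and 4.35 FPKM in 17ab replicates 1 to 3, against 2.52, 1.67 and 2.76 FPKM in WT replicates 1 to 3, which is a difference of 0.99 ± 0.23 on the log2 scale (edgeR, adjusted p = 0.01247). ERDJ3B and SDF2, which form a complex with BiP, had log2 fold changes of 0.24 ± 0.11 and -0.11 ± 0.10 and did not pass. None of the 4 enzymes that trim or restore the glucose read by calnexin and calreticulin passed, with log2 fold changes from -0.05 for GCS1 to 0.19 for RSW3 and a median of 0.13. In the same edgeR test 1 of them, RSW3, had an unadjusted p under 0.05.

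Of 11 protein disulfide isomerase and ERO1 genes 2 rose and none fell, with a median of 0.02, while 7.57% of all tested genes rose. PDIL1-3 rose by 0.77 ± 0.09 (edgeR adjusted p = 0.000146) and PDIL1-2 by 0.39 ± 0.11 (adjusted p = 0.02541) on the log2 scale. Of 10 genes of ER-associated degradation, which disposes of proteins that fail to fold, none passed the edgeR test, 0 had an unadjusted p under 0.05, and log2 fold changes lay between -0.10 and 0.13. Of 11 tested sensors and regulators 3 fell (bZIP17, IRE1A and IRE1B) and 1 rose, the cell death suppressor BI1 (0.36 ± 0.08, edgeR adjusted p = 0.006661).

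No relative of the same chaperone families in other compartments passed the edgeR test with a higher level in 17ab, and at an unadjusted p under 0.05 there was none either. Of 13 HSP70 genes outside the ER none rose and 1 fell, CPHSC70-2 of the chloroplast, at 155.6 ± 14.4 FPKM in 17ab and 191.0 ± 10.7 FPKM in WT (n = 3), with a log2 difference of -0.32 ± 0.08 (edgeR, adjusted p = 0.01301). Of 6 HSP90 genes outside the ER none rose and 1 fell, HSP90.5, also of the chloroplast, by 0.33 ± 0.10 in log2 units (edgeR, adjusted p = 0.04223). The medians were -0.10 and -0.20. Over all tested genes 7.57% rose and 6.51% fell, and lists of 13 and 6 genes can hold no riser at that share. Whether the ER members differed from these relatives as a group was not tested.

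Tissue markers were read because whole seedlings mix organs. The 10 root markers summed to 56.15 to 62.48 FPKM in 17ab and 49.89 to 52.57 FPKM in WT, ranges that did not overlap. Of the 5 tested, AKT1 (0.90 ± 0.12) and PHO1 (0.53 ± 0.13) rose and GL2 fell (-0.35 ± 0.10, log2 fold change ± SE), and SHR and SCR did not pass. PIN2, CASP1, PLT1, PLT2 and WOX5 were too low to be tested, and PLT1, PLT2 and WOX5 were at 0 in at least 1 library. Mean levels were 0.33 FPKM in 17ab and 0.197 FPKM in WT for PIN2, and 1.31 and 0.49 FPKM for CASP1. The sum of root markers therefore rests almost wholly on the tested ones. These moved in both directions, so the sum is no measure of the root share. The 10 leaf photosynthesis markers summed to 23000 to 25610 FPKM in 17ab and 24050 to 28980 FPKM in WT, which overlapped, and 1 of 10, CA1, fell (-0.31 ± 0.09). The part of organ shares in the chaperone values was not tested.

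Sequence around the annotated gene starts was searched for motifs known from the plant unfolded protein response. In Arabidopsis the ER stress response element (ERSE), with the letters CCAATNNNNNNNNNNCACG, is known as a site of bZIP28 together with NF-Y factors, and ATTGGNCCACG is its shorter form ERSE-II. The UPRE core TGACGT and the G-box CACGTG are more general bZIP sites, and they can overlap ERSE and ERSE-II through their shared ACGT or CACG letters. Windows ran from 250 bases before to 50 bases after the start, both strands were read, and all 27443 protein-coding nuclear genes with a full window in RefSeq TAIR10.1 were searched in the same way. An ERSE was found in 5 of the 10 members (BIP3, CNX1, CRT1, SHD and HSP70-17) and in 0.849% of all windows. ERSE-II was found in BIP2 alone of the 10 and in 0.0692% of all windows. The UPRE core was found in 6 of 10 and 9.19%, and the G-box in 4 of 10 and 7.68%. The end of the BIP1 window matches bases that lie before the annotated start of BIP2. BIP1 sequence opposite the BIP2 match was therefore not searched, and its empty window does not show that BIP1 lacks the motif.

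Of the 4 genes that rose, BIP3 held 2 copies of ERSE and HSP70-17 held 1, while no motif was found in the windows of CRT2 and CRT3. Of the 6 that did not pass, CRT1, SHD and CNX1 each held an ERSE. The matched stretches are shown for these genes, and those of CRT2 and CRT3 for contrast. Sequences run 5′ to 3′ on the strand of the gene, capitals mark motif letters, and on the opposite strand an ERSE reads CGTG, a gap and ATTGG, and the UPRE core reads ACGTCA. All are from RefSeq, build TAIR10.1. The BIP3 stretch runs from -180 to -61 relative to the start (chr1:2931911-2932030, minus strand), with ERSE at -174 to -156 and -96 to -78. Those of HSP70-17 (chr4:9376579-9376698, plus strand), CRT1 (chr1:21092710-21092829, minus strand), SHD (chr4:12556059-12556178, minus strand), CRT2 (chr1:2977003-2977122, minus strand) and CRT3 (chr1:2671958-2672077, minus strand) span the last 120 bases before the start.
BIP3: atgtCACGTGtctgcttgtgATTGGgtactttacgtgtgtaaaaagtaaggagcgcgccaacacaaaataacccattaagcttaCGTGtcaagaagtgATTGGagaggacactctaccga
HSP70-17: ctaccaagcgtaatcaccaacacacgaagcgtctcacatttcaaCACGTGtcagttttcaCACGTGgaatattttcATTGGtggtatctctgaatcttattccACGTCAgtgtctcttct
CRT1: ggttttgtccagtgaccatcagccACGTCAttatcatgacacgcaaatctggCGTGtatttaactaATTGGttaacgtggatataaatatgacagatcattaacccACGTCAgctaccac
SHD: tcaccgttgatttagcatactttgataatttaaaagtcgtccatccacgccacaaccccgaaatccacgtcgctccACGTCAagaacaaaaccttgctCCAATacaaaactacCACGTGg
CRT2: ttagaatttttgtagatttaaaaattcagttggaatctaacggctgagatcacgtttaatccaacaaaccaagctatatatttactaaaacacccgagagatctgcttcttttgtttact
CRT3: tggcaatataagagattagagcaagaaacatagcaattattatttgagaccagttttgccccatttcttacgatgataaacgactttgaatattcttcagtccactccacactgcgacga

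In BIP2 and CNX1 the match lay just after the annotated start, and 30 bases are shown for each (BIP2, chr5:16810652-16810681, minus strand; CNX1, chr5:24829857-24829886, minus strand). In both an UPRE core overlaps the longer motif, and in BIP3, SHD and HSP70-17 a G-box overlaps an ERSE.
BIP2: gtaagataATTGGtCCACGTCAtctccgat
CNX1: tgaaTGACGTGgcctgttatgATTGGttag

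**Figure D5:**
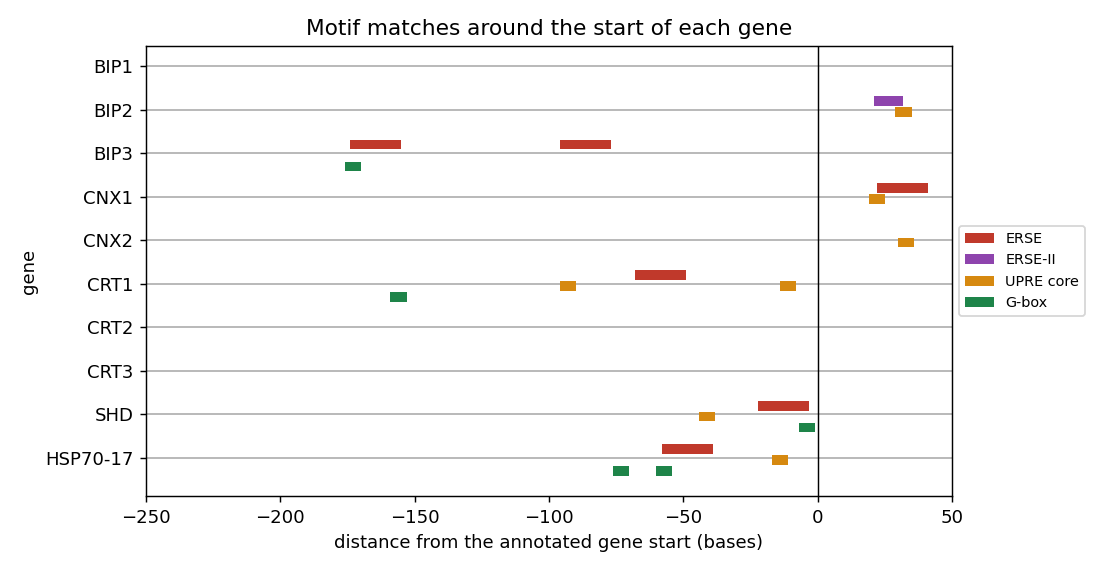
Positions of motif matches from 250 bases before to 50 bases after the annotated start of each gene (horizontal axis, bases; vertical line, gene start), 1 row per gene and 1 colour per motif. BIP3 has 2 ERSE matches, and no match lies in the windows of BIP1, CRT2 and CRT3. The BIP1 window ends in bases that in BIP2 lie before the annotated start, so sequence opposite the BIP2 match was not searched.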

How the data were processed

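The deposited table of each library holds gene length, expected counts and FPKM, per the file headers. The authors' FPKM values are scaled by length and library total. The submitters' processing notes name TAIR10, STAR 2.4.0, HTSeq 0.6.0 and DESeq2 without roles. The program behind the expected counts and any use of strand are not given in the sources used here. Genes that a table does not list were set to 0.

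Expected counts were rounded and tested with edgeR 4.0.16 (R 4.3.3): quasi-likelihood test, TMM normalization, default filter, 17854 genes in 1 fit of all 6 libraries, Benjamini-Hochberg adjustment, threshold 0.05. The SE of a log2 fold change is its size over the root of F. The floor of 3 counts was 0.477 to 0.503 CPM. Replicates differed by more than counting noise, and each was treated as 1 sample. That spread does not show that they came from separate plates. Alternatives were DESeq2 1.42.0, limma 3.58.1 on log2 FPKM, other filters and scalings, each library left out, a replicate block, and summed gene pairs.

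The members and lists were chosen with earlier results of these data known. The genes named are all members, up to 4 passing genes of each related list, bZIP17, bZIP28, bZIP60, IRE1A and IRE1B, and the 3 most alike profiles of each risen member, besides list members given for context and the genes lowest or highest in a list, chosen after their values were seen. Sequences come from RefSeq TAIR10.1, matched by locus tag for all 10 members (Biopython 1.88). That build differs in name from the authors' TAIR10, and the coordinates given are those of TAIR10.1.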

Additional observations from a re-analysis of the deposited data

How the results depend on the processing

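The number of risen members was 4 with DESeq2, with DESeq2 size factors, with no filter, without organelle genes, with BIP1 and BIP2 summed and on log2(FPKM + 1). It was 3 on log2(FPKM + 0.1) and with at least 5 CPM in 3 libraries, where BIP3 was not tested, and 2 to 4 in the fits without 1 library. Over all tested genes 1352 of 17854 rose in the main fit, 1335 of 17854 with DESeq2 size factors and 876 of 19890 with DESeq2. The number was 1385 of 23017 with no filter, 1360 of 17820 without organelle genes and 1352 of 17853 with BIP1 and BIP2 summed. It was 1168 and 1114 of 18310 on log2(FPKM + 1) and log2(FPKM + 0.1), and 1258 of 15322 at 5 CPM. With the replicate block 1048 of 17854 rose, and without 1 library 889 to 1137. No member fell in any of these fits by edgeR, DESeq2 or limma. The replicate numbers share no source in the labels, and same-numbered libraries did not deviate together (correlations of -0.003, -0.108 and -0.046); with the replicate block 4 members rose. Leaving out 1 library gave CRT2 log2 fold changes of 0.23 to 0.34 and HSP70-17 0.25 to 0.45. HSP70-17 was at 0.41 (adjusted p = 0.05199) on log2(FPKM + 0.1). CRT1 changed sign, to 0.019 with limma at either pseudocount and between -0.124 and 0.042 without 1 library, and BIP1 plus BIP2 ran from -0.10 to 0.10 without 1 library. Summing copies gave 0.089 for CRT1 plus CRT2, a pair that was not called although CRT2 alone was. For CNX1 plus CNX2 the sum gave 0.088. Both pair values were positive, while CRT1 and CNX2 alone were negative in the main fit. These sums were chosen after seeing the data and mix both copies, so they are not estimates for either copy. The causes of the other changes were not tested.

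The depth behind BIP3 was low, with 3 to 10 counts per WT library.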
